A study of Homo sapiens with 6 samples.

Results

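The genes described here were the tumor necrosis factor (TNF) receptor and ligand superfamily, taken as every gene whose name begins with TNFRSF (receptors) or TNFSF (ligands). They numbered 35 of the 34644 gene names in the data, and comprised 21 receptor genes, 11 ligand genes and 3 other transcripts with the prefix, which were the antisense transcript TNFRSF14-AS1, the divergent transcript TNFRSF10A-DT and the readthrough transcript TNFSF12-TNFSF13. The 35 names were listed in 37 places, and places with the same name were summed. All 6 bulk RNA-seq libraries came from HK-2, a human cell line that was immortalized from epithelium of the kidney's proximal tubule, after a single dose of 8 Gy of X-rays and harvest on day 7. The cells carried either a lentivirus that served as negative control (IR+NC-LV, n = 3) or a lentivirus that overexpresses PRDM16, a transcriptional regulator (IR+PR-LV, n = 3), and cells without virus were removed with puromycin. The comparison asked what PRDM16 overexpression changes in irradiated tubular cells. Every library was irradiated, so the effect of X-rays on these genes could not be measured, and a single immortalized line stands for the tubule. The labels number the samples of a group as cell1 to cell3 without saying that they were separate cultures, so p-values measure only the spread between these samples.

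Ligands of the TNF superfamily are mostly trimeric membrane proteins, some of which are also shed, and they act by clustering their receptors. Receptors with a cytoplasmic death domain recruit adaptors such as FADD and TRADD and can lead to caspase-8 activation, whereas the others bind TRAF adaptors and feed the NF-kB and MAP kinase pathways. Decoy receptors bind a ligand without passing on its full signal. Injured tubular cells are known to express several of these receptors, and NF-kB in turn induces some of the genes of its own feedback.

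The libraries held between 13407074 and 28540041 counts, and PRDM16 itself had 2, 0 and 1 counts in IR+NC-LV and 14, 10 and 8 counts in IR+PR-LV, higher in each of the latter. Of 12 markers of proximal tubule and epithelium, 7 reached a mean of 1 TPM, the deposited level per transcript length. They were the keratins KRT8, KRT18 and KRT19, CDH2, PAX8, the brush border enzyme GGT1 (69.9 TPM) and the water channel AQP1 (2.92 TPM). CDH1 and the other apical transport and brush border genes, LRP2, CUBN, SLC34A1 and ANPEP, did not. The summed TPM of the 12 markers lay between 2342 and 2432 in IR+NC-LV and between 2332 and 2827 in IR+PR-LV. Leukocyte markers reached that mean for 1 of 5 genes (CD14), endothelial markers for 0 of 4 and fibroblast markers for 1 of 4 (COL1A1). The summed TPM of the leukocyte markers was 3.96 to 6.28 in IR+NC-LV and 3.79 to 5.37 in IR+PR-LV. PRDM16 had 0 to 0.045 TPM in IR+NC-LV and 0.13 to 0.31 TPM in IR+PR-LV. Its RNA was thus below 1 TPM in every library, also in those with the overexpression virus.

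The start regions of TNFRSF9, the superfamily gene with the smallest p-value in the comparison, and of TNFAIP3, a signalling gene that passed the test, are shown because both genes are known NF-kB targets. These genes were picked with the result of the comparison known, and NF-kB targets that did not change were not collected beside them. Both printed regions are RefSeq promoters of GRCh38.p14, 250 bases before to 50 bases after the start, read 5′ to 3′ on the gene's own strand. The start used for TNFRSF9 is the one of the RefSeq table, and it lies inside the longer span listed for the gene in the deposited data (chr1:7915871-7941607). TNFRSF9 lies on the minus strand of chr1:7940790-7941089 and TNFAIP3 on the plus strand of chr6:137867009-137867308. Capitals mark matches to the kappaB consensus, the site that NF-kB binds, and to the AP-1 site TGANTCA.
TNFRSF9: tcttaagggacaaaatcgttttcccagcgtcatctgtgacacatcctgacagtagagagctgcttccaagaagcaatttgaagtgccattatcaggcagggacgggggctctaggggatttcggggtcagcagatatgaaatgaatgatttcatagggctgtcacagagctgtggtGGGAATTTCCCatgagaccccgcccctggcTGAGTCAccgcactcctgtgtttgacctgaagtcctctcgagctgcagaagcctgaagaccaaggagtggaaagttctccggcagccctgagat
TNFAIP3: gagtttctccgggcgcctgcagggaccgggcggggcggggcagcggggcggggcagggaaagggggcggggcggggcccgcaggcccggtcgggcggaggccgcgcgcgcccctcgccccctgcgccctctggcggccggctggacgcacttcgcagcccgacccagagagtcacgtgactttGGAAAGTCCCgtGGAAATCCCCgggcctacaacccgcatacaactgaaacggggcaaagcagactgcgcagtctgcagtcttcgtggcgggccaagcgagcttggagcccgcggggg

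In TNFRSF9 the capitals nearer to the start were the AP-1 site, 44 to 38 bases upstream, and the other capitals held 2 overlapping kappaB matches, 1 on each strand, between 74 and 64 bases upstream. In TNFAIP3 both stretches of capitals were kappaB matches, from 67 to 58 and from 55 to 46 bases upstream. TRAF1, the other signalling gene that passed the test and also a known NF-kB target, had 3 promoter entries. Each of them held 0 kappaB and 0 AP-1 matches, and they are not printed. TNFRSF12A, TNFRSF10A, TNFRSF10B and TNFRSF10D were among the superfamily genes without a promoter entry and were not searched. Of the 35 superfamily genes, 22 had a promoter entry. The kappaB consensus was present for 5 of these 22 (TNFRSF9, TNFRSF14, TNFRSF25, TNFSF13 and TNFSF14), against 7.09% of the 27305 genes with an entry and 5.91% of all 35116 promoters. Of these 5, TNFRSF14, TNFRSF25, TNFSF13 and TNFSF14 had an unadjusted p of 0.05 or more in the comparison (edgeR). The AP-1 site was present for 4 of 22 (TNFRSF9, TNFRSF8, TNFSF14 and TNFSF15), against 9.37% of genes and 7.71% of promoters. Both strands were searched, and the AP-1 and kappaB matches in TNFRSF9 did not overlap each other. A match describes letters in this window and was not tested as a binding site.

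HK-2 cells expressed mainly receptors of this superfamily. A mean of at least 1 TPM was reached by 18 of the 35 genes, namely 14 of 21 receptor genes, 3 of 11 ligand genes and TNFRSF10A-DT. The most abundant was TNFRSF12A (Fn14), the receptor of the ligand TWEAK and a gene known to be induced in injured epithelium, which ranked 392 by TPM among the 27403 gene names with a count. It alone held between 35.6% and 40.9% of the summed TPM of the 21 receptor genes in each library. This share and its first place depend on a listed exon length of 977 bases. By library-scaled counts without a length correction, TNFRSF12A ranked 3 of the 35. TNFRSF1A, the main TNF receptor of non-immune cells and a death domain receptor, followed with 195.2 ± 12.0 TPM (SD over 6 libraries), and its lowest library was above the highest of the third gene, TNFRSF10B (118.6 ± 7.65 TPM). TNFRSF10D followed with 105.0 ± 4.61 TPM, whereas TNFRSF21 (80.5 ± 2.50 TPM) and TNFSF10 (79.7 ± 11.6 TPM) could not be ranked beyond their spread.

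Among the receptors with a death domain or a decoy role for TRAIL, the ligand encoded by TNFSF10, the signalling receptors TNFRSF10B and TNFRSF10A and the decoy TNFRSF10D were all expressed. TNFRSF10B had 126.3, 120.2 and 128.6 TPM in IR+NC-LV and 110.7, 113.9 and 111.9 TPM in IR+PR-LV. TNFRSF10A had 24.7, 25.8 and 29.8 TPM in IR+NC-LV and 26.0, 26.2 and 30.4 TPM in IR+PR-LV. TNFRSF10D had 102.2, 99.3 and 109.4 TPM in IR+NC-LV and 109.4, 101.3 and 108.6 TPM in IR+PR-LV. Each library of IR+PR-LV was thus below each of IR+NC-LV for TNFRSF10B in TPM, while the groups of the other 2 overlapped. The glycolipid-anchored decoy TNFRSF10C had 6 counts in all 6 libraries together, and the secreted decoy TNFRSF11B (osteoprotegerin) had 3 to 13 counts per library. TNFRSF10D stood at 67.7% to 69.1% of the summed TPM of TNFRSF10A and TNFRSF10B in IR+NC-LV and at 72.3% to 80.0% in IR+PR-LV. This ratio was chosen after the values were seen and was not tested.

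The remaining death domain receptors spanned a wide range. TNFRSF1A had 190.1, 187.6 and 196.5 TPM in IR+NC-LV and 217.9, 195.0 and 184.1 TPM in IR+PR-LV. TNFRSF21 (DR6), best known from neurons and lymphocytes, had 83.2, 79.0 and 83.5 TPM in IR+NC-LV and 78.0, 81.1 and 78.0 TPM in IR+PR-LV. TNFRSF25 (DR3), the receptor of TL1A, had 11.2, 10.9 and 10.7 TPM in IR+NC-LV and 12.3, 8.62 and 9.17 TPM in IR+PR-LV. For each of these 3 receptors the groups overlapped. Of its exon bases, TNFRSF25 shares 15.4% with ESPN on the opposite strand and 3.63% with PLEKHG5, and since the sources used here do not say whether strand was used in counting, reads in these stretches cannot be assigned with certainty.

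Of the receptors without a death domain, TNFRSF12A had 415, 404 and 455 TPM in IR+NC-LV and 352, 355 and 331 TPM in IR+PR-LV. TNFRSF9 (CD137), a costimulatory receptor of activated T cells that NF-kB is known to induce, had 36.7, 34.9 and 43.9 TPM in IR+NC-LV and 28.7, 30.6 and 30.9 TPM in IR+PR-LV. In both genes the highest IR+PR-LV library was below the lowest IR+NC-LV library. TNFRSF19 (TROY), an embryonic and epithelial receptor, had 20.9, 17.7 and 21.4 TPM in IR+NC-LV and 17.8, 20.5 and 20.2 TPM in IR+PR-LV. TNFRSF1B, the TNF receptor that binds TRAF2 directly, had 12.9, 12.8 and 11.5 TPM in IR+NC-LV and 12.1, 13.001 and 11.7 TPM in IR+PR-LV. The groups of both receptors overlapped.

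TNFRSF18 (GITR), a receptor of regulatory T cells, had 4.42, 4.32 and 4.59 TPM in IR+NC-LV and 7.01, 3.89 and 3.97 TPM in IR+PR-LV, so that a single IR+PR-LV library, replicate 1, was above all others. TNFRSF8 (CD30), a marker of activated lymphocytes, had 3.82, 4.10 and 4.22 TPM in IR+NC-LV and 4.63, 4.02 and 4.16 TPM in IR+PR-LV. TNFRSF11A (RANK), the receptor of the osteoclast ligand RANKL, had 2.07, 2.06 and 1.91 TPM in IR+NC-LV and 1.77, 1.69 and 1.87 TPM in IR+PR-LV. Of these 3 genes only TNFRSF11A had groups without overlap in TPM, and its normalized CPM, the library-scaled counts without a length correction that stand for the scale of the test, did overlap.

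TNFRSF14 (HVEM), which binds both LIGHT and the lymphocyte inhibitor BTLA, differed more between libraries than between groups. It had 8.70, 2.38 and 8.88 TPM in IR+NC-LV and 8.64, 7.64 and 1.73 TPM in IR+PR-LV. The second IR+NC-LV library and the third IR+PR-LV library were low, with 45 and 29 counts, while the other 4 held 105 to 199. The SD of its log2 CPM over the 6 libraries was 1.04, above that of 98.7% of the 2425 tested genes with a count within 2 times its own, for which the median SD was 0.19. TNFRSF14 shares 11.0% of its exon bases with TNFRSF14-AS1, which had 4 to 13 counts per library. This gene was singled out after its values were seen, and what set the 2 libraries apart was not tested.

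The other 7 receptor genes stayed below a mean of 1 TPM, and all are known mainly from lymphocytes or as decoys. Their mean levels were 0.55 TPM for TNFRSF11B, 0.42 TPM for TNFRSF13C (the BAFF receptor of B cells), 0.31 TPM for TNFRSF6B (the secreted decoy DcR3), 0.11 TPM for TNFRSF10C, 0.10 TPM for TNFRSF17 (BCMA, of plasma cells) and 0.064 TPM for TNFRSF4 (OX40, of T cells). TNFRSF13B (TACI, of B cells) had no count, and 0 counts of 115430886 allow a level of at most 0.026 CPM (3 counts), a limit of counting error only. Of the exon bases of TNFRSF6B, 90.5% are shared with RTEL1-TNFRSF6B, so its 12 counts are uncertain.

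The ligands were fewer. TNFSF10 (TRAIL) had 76.5, 84.2 and 59.5 TPM in IR+NC-LV and 81.1, 94.6 and 82.4 TPM in IR+PR-LV, with the lowest value in IR+NC-LV replicate 3. TNFSF9, the ligand of TNFRSF9, had 64.5, 66.6 and 65.6 TPM in IR+NC-LV and 68.0, 66.3 and 59.1 TPM in IR+PR-LV. TNFSF13 (APRIL), a survival factor for plasma cells, had 5.39, 7.24 and 5.40 TPM in IR+NC-LV and 5.42, 4.84 and 6.14 TPM in IR+PR-LV. The groups of all 3 ligands overlapped. TNFSF13 shares 66.3% of its exon bases with the readthrough transcript TNFSF12-TNFSF13, which was listed at 0 counts in every library, so reads of the shared stretch cannot be assigned with certainty.

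The other 8 ligand genes had means below 1 TPM. TNFSF15 (TL1A) stood at 0.90 TPM, TNFSF4 (OX40 ligand) at 0.66 TPM, TNFSF13B (BAFF) at 0.56 TPM, TNFSF14 (LIGHT) at 0.35 TPM, TNFSF18 (GITR ligand) at 0.32 TPM and TNFSF8 (CD30 ligand) at 0.16 TPM. TNFSF4 had 83 to 154 counts per library, more in total (684) than TNFSF13 (386), and its low TPM goes with a listed exon length of 29996 bases, so its place below 1 TPM depends on that length. TNFSF12 (TWEAK), the ligand of the most abundant receptor, had 2, 0 and 1 counts in IR+NC-LV and 4, 1 and 1 counts in IR+PR-LV, and TNFSF11 (RANKL) had 1 count in the 6 libraries. Both sets of counts are too low for a comparison, and 36.8% of the exon bases of TNFSF12 are shared with the readthrough transcript. Of the other transcripts with the prefix, TNFRSF10A-DT had 4.13, 5.31 and 4.46 TPM in IR+NC-LV and 4.95, 4.86 and 4.41 TPM in IR+PR-LV, and TNFRSF14-AS1 averaged 0.30 TPM.

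The superfamily also holds 8 receptor genes and 7 ligand genes with names outside the prefix, and 8 of these 15 passed the filter on low counts. The highest were LTBR, the lymphotoxin beta receptor, at 168.6 ± 15.6 TPM (SD over 6 libraries), CD40 at 126.2 ± 14.4 TPM, the CD27 ligand CD70 at 88.3 ± 4.13 TPM, RELT at 21.1 ± 1.43 TPM and FAS at 11.4 ± 1.18 TPM. TNF itself averaged 0.031 TPM, FASLG 0.14 TPM, and CD40LG had no count. LTB, a lymphotoxin subunit, had 3, 2 and 18 counts in IR+NC-LV and 0, 1 and 0 counts in IR+PR-LV, with most of its counts in IR+NC-LV replicate 3.

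Known ligand and receptor pairs were set beside each other by mean TPM over the 6 libraries. Of 28 pairs, 5 had both partners at 1 TPM or more, namely TNFSF9 with TNFRSF9, TNFSF10 with TNFRSF10A, TNFRSF10B and TNFRSF10D, and CD70 with CD27 (1.14 TPM). CD27 averaged 0.92 TPM without IR+PR-LV replicate 1, which would leave 4 pairs. In 11 pairs only the receptor reached that level, as for TNFRSF12A with TNFSF12, TNFRSF1A and TNFRSF1B with TNF, and CD40 with CD40LG. In 4 pairs only the ligand did, as for TNFSF13 with TNFRSF13B and TNFRSF17, and in 8 pairs neither did. The 28 pairs are not every known pair. Pairs of LTA, EDA, EDAR and EDA2R were left out, and these genes averaged 0.020, 0.21, 0.072 and 0.0052 TPM. LTB with LTBR was also not among the 28 pairs. LTB averaged 1.03 TPM, with 5.05 TPM in IR+NC-LV replicate 3 and at most 0.65 TPM in any other library. RNA of a bulk culture shows which partners were transcribed, not whether they met.

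**Figure D1:**
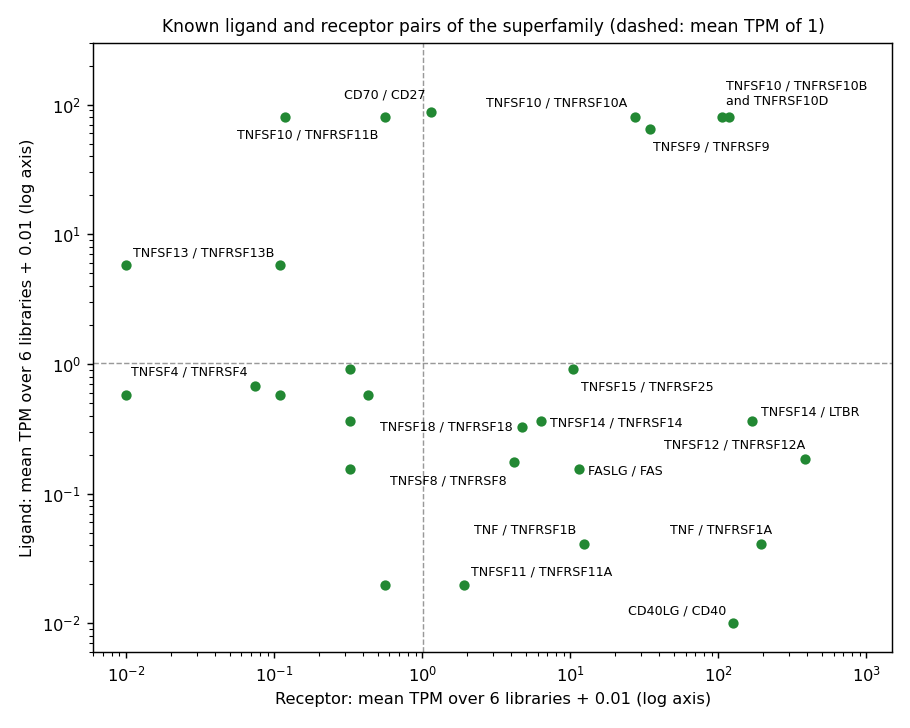
Mean TPM over 6 libraries of the receptor (horizontal) and the ligand (vertical) of 28 known superfamily pairs, both on log axes after adding 0.01, with dashed lines at 1 TPM. Points at the lower right are abundant receptors with little or no ligand RNA, such as TNFSF12 / TNFRSF12A at 385 TPM of receptor, and the TRAIL and TNFSF9 pairs lie at the upper right.

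No superfamily gene passed the test of IR+PR-LV against IR+NC-LV. Of the 35 genes, 22 passed the filter on low counts (14 receptor genes, 7 ligand genes and TNFRSF10A-DT), and with edgeR's quasi-likelihood test 0 of them had an adjusted p under 0.05, where 0.0797% of the 15054 genes tested did. At an unadjusted p under 0.05, 2 of 22 were lower in IR+PR-LV and 0 were higher, against 6.09% lower and 4.41% higher of all genes tested, and DESeq2 gave 0 past the threshold, where 1.03% of its genes passed. DESeq2, run without a count filter, gave an unadjusted p under 0.05 for 2 superfamily genes that were lower (TNFRSF9 and TNFRSF12A) and 1 that was higher (TNFSF10) of the 33 with a p, against 2.27% and 2.45% of all genes. Normalized CPM did not overlap between the groups in 3 genes that were lower in IR+PR-LV and 1 that was higher, against 9.56% and 7.45% of all genes tested. The log2 fold changes split evenly, with 11 above 0 and 11 below, and their median was 0.00094, beside 0.0043 over all genes tested. In bulk RNA, fewer cells with a transcript and less of it per cell cannot be told apart.

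The 2 genes with an unadjusted p under 0.05 were the receptors TNFRSF9 and TNFRSF12A. TNFRSF9 (chr1:7915871-7941607, hg38) had 77.5, 75.1 and 86.6 normalized CPM in IR+NC-LV and 61.4, 66.0 and 65.2 normalized CPM in IR+PR-LV, and its log2 fold change was -0.31 ± 0.075 (SE; adjusted p = 0.199 with edgeR's quasi-likelihood test and Benjamini-Hochberg adjustment). TNFRSF12A (chr16:3020368-3022383, hg38) had 124.6, 123.4 and 127.5 normalized CPM in IR+NC-LV and 107.1, 108.9 and 99.3 normalized CPM in IR+PR-LV, and its log2 fold change was -0.25 ± 0.062 (SE; adjusted p = 0.202 in the same edgeR fit). In each gene every IR+PR-LV library was below every IR+NC-LV library, yet neither passed after adjustment over all genes. TNFRSF9 passed with adjusted p = 0.0419 when edgeR was run without the filter on low counts, where 354 of 27403 genes passed in place of 12 of 15054.

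**Figure D2:**
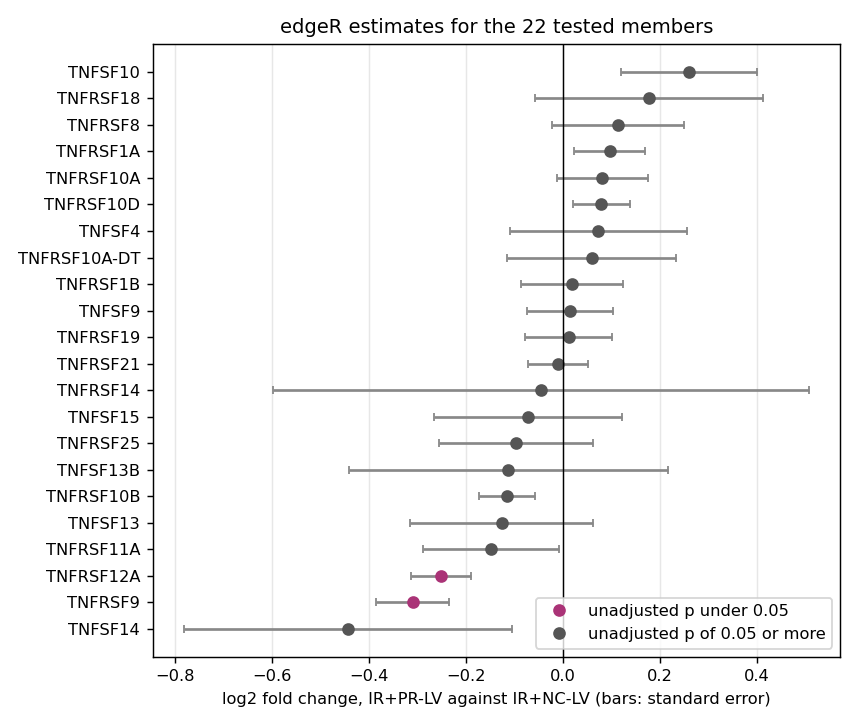
The log2 fold change of IR+PR-LV against IR+NC-LV with its standard error (bars) for the 22 superfamily genes tested, from edgeR's fit. TNFRSF9 (-0.31) and TNFRSF12A (-0.25) are the colored points with an unadjusted p under 0.05, and the estimates of the others fall on both sides of 0.

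The other 20 estimates had an unadjusted p of 0.05 or more. TNFRSF10B, the third gene without overlap that was lower in IR+PR-LV, had a log2 fold change of -0.12 ± 0.057 (adjusted p = 0.512, edgeR), and the decoy TNFRSF10D, the gene without overlap that was higher, had 0.08 ± 0.058 (adjusted p = 0.680, edgeR). For the ligand TNFSF10 the estimate was 0.26 ± 0.14 (adjusted p = 0.556, edgeR), and it was 0.11 without IR+NC-LV replicate 3 and 0.40 without IR+NC-LV replicate 2. TNFSF14 had the most negative estimate, -0.44 ± 0.34 (adjusted p = 0.689, edgeR), from 11 to 15 counts per library. TNFRSF14, whose spread is described above, had -0.05 ± 0.55, which became -0.47 without IR+NC-LV replicate 2 and 0.39 without IR+PR-LV replicate 3. Among the other death domain receptors, the estimates were 0.10 ± 0.074 for TNFRSF1A, -0.01 ± 0.063 for TNFRSF21 and 0.08 ± 0.094 for TNFRSF10A, and leaving out 1 library moved them to between 0.028 and 0.16 for TNFRSF1A, with the lowest without IR+PR-LV replicate 1, and between 0.016 and 0.13 for TNFRSF10A, with the lowest without IR+PR-LV replicate 3. The remaining 12 estimates lay between -0.15 for TNFRSF11A and 0.18 for TNFRSF18, and TNFRSF18 stood at -0.14 without IR+PR-LV replicate 1.

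On the TPM scale, the 21 receptor genes together held 1044, 1006 and 1111 TPM in IR+NC-LV and 989, 963 and 929 TPM in IR+PR-LV. Every IR+PR-LV sum was below every IR+NC-LV sum. Without TNFRSF12A the sums were 629, 603 and 656 TPM in IR+NC-LV and 637, 609 and 598 TPM in IR+PR-LV, and the groups overlapped. The 11 ligand genes together held 149.9, 160.6 and 134.3 TPM in IR+NC-LV and 157.5, 168.4 and 151.1 TPM in IR+PR-LV, which also overlapped.

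Of the superfamily genes under other names, 0 of the 8 tested passed with edgeR, 0 had an unadjusted p under 0.05, and their estimates lay between -0.48 for NGFR, the neurotrophin receptor, and 0.56 for CD27. The neurotrophin receptor had 0.70 to 1.62 TPM and CD27 0.69 to 2.21 TPM, so both are low. The death receptor FAS had 13.1, 12.4 and 11.2 TPM in IR+NC-LV and 9.75, 11.2 and 11.0 TPM in IR+PR-LV, with a log2 fold change of -0.17 ± 0.10 (adjusted p = 0.606, edgeR), and its normalized CPM overlapped between the groups.

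Of the 12 genes past the threshold over all genes tested, 2 belonged to a list of 35 adaptors and proximal signalling genes of these receptors, which was chosen with TRAF1 and TNFAIP3 already known to pass. Of the list, 34 genes were tested, and both that passed were lower in IR+PR-LV (0.0797% of all genes tested passed). An unadjusted p under 0.05 was found for 3 lower and 1 higher of the 34, beside 6.09% and 4.41% of all genes tested. The median log2 fold change of the 34 was -0.015. TRAF1, an adaptor that binds TNFRSF9 and other receptors and is itself an NF-kB target, had 18.4, 18.1 and 22.6 TPM in IR+NC-LV and 10.6, 8.33 and 9.36 TPM in IR+PR-LV, and its log2 fold change was -1.02 ± 0.11 (adjusted p = 0.0092, edgeR). TNFAIP3 (A20), a ubiquitin-editing enzyme that limits NF-kB signalling, had 71.2, 63.8 and 87.3 TPM in IR+NC-LV and 44.4, 41.4 and 41.1 TPM in IR+PR-LV, and its log2 fold change was -0.76 ± 0.086 (adjusted p = 0.0102, edgeR). No library of one group reached the other in either gene. Without IR+PR-LV replicate 3 the log2 fold change was -1.01 for TRAF1 (adjusted p = 0.0613, edgeR) and -0.73 for TNFAIP3 (adjusted p = 0.0798, edgeR), and without IR+PR-LV replicate 1 it was -0.80 for TNFAIP3 (adjusted p = 0.0512, edgeR), when 2 and 6 of all genes passed in place of 12.

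**Figure D3:**
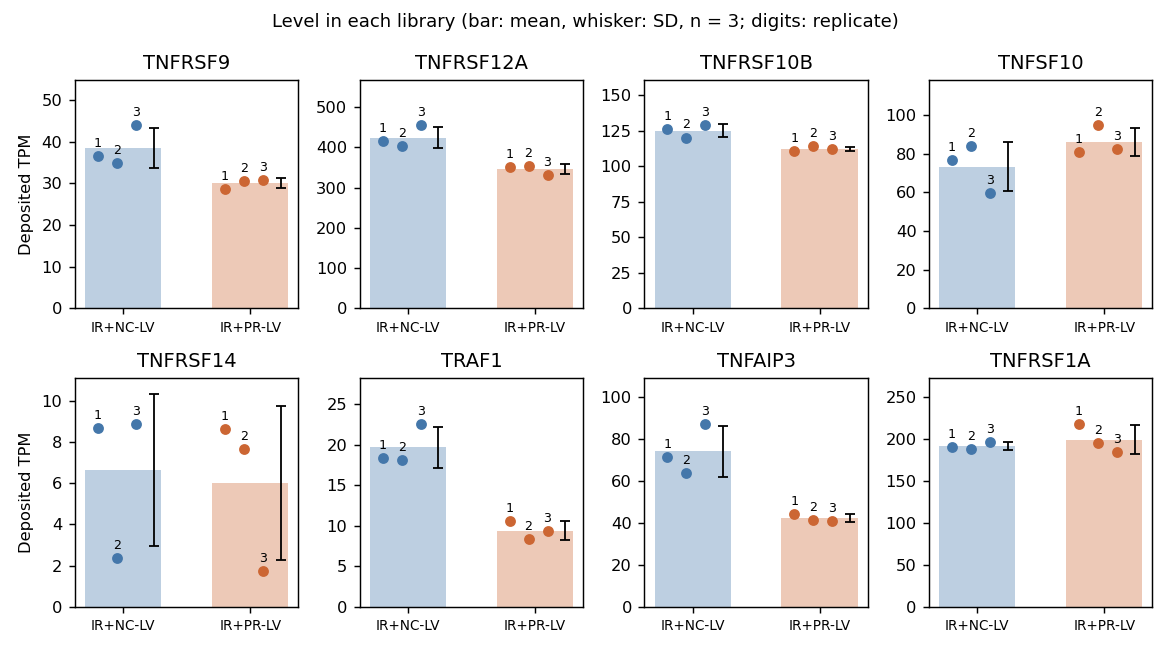
Deposited TPM in each library for 6 superfamily genes, the adaptor TRAF1 and the enzyme TNFAIP3, with bars from 0 at the group mean, whiskers for the SD (n = 3) and points numbered by replicate. TRAF1 and TNFAIP3 fall from means of 19.7 and 74.1 TPM to 9.42 and 42.3 TPM, TNFRSF9 and TNFRSF12A show smaller gaps, and TNFRSF14 has its low points in IR+NC-LV replicate 2 and IR+PR-LV replicate 3.

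The deubiquitinase CYLD, another brake on NF-kB, had 58.7, 57.0 and 78.6 TPM in IR+NC-LV and 46.3, 47.8 and 52.6 TPM in IR+PR-LV, with a log2 fold change of -0.36 ± 0.095 (adjusted p = 0.241, edgeR). Its adjusted p was 0.0451 with DESeq2 and 0.0037 with edgeR without the filter on low counts. The highest TPM of TNFRSF9, TNFRSF12A, TRAF1, TNFAIP3 and CYLD was in IR+NC-LV replicate 3, the library with the fewest counts, and without it the estimates were -0.24 for TNFRSF9, -0.24 for TNFRSF12A, -0.95 for TRAF1, -0.67 for TNFAIP3 and -0.24 for CYLD. TRAF1 and TNFAIP3 still passed without that library (adjusted p = 0.0258 and 0.015, edgeR). The kinase MAP3K5 (ASK1), which acts downstream of TRAF2, was the gene with an unadjusted p under 0.05 and a higher level, with 0.21 ± 0.094 (adjusted p = 0.473, edgeR), which was 0.11 without IR+NC-LV replicate 3 and 0.28 without IR+NC-LV replicate 2. The most abundant genes of the list were the ubiquitin ligases BIRC2 (157.1 ± 12.4 TPM, SD over 6 libraries) and BIRC3 (103.1 ± 7.26 TPM), the adaptor TAB2 (107.8 ± 11.6 TPM), the kinase MAP3K7 (89.3 ± 2.37 TPM) and the protease ADAM10 (85.7 ± 3.84 TPM), and none of these had an unadjusted p under 0.05. BIRC3 had a log2 fold change of -0.019 ± 0.085 (edgeR). The NF-kB targets of this list were not collected as a set, so whether they moved together was not tested. FADD and CASP8, which the death domain receptors use, averaged 66.0 ± 3.73 and 35.3 ± 0.75 TPM. RIPK3, the kinase of necroptosis, had no count in any library.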

How the data were processed

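RNA of the 6 libraries was enriched for poly(A) and sequenced as read pairs. The authors deposited, for each library, raw counts per gene together with TPM and FPKM values computed from the same counts and the gene length, with no normalization across libraries. The deposited TPM values were used for levels, and the deposited FPKM values only for the order of genes. The submitters' processing notes name CASAVA, featureCounts 2.0.1, DESeq2 1.16.1 and hg38, and the aligner, annotation and strand setting are not given in the sources used here. Counts of 38648 listed genes and copies were summed over 34644 names. IR+PR-LV was compared with IR+NC-LV by edgeR 4.0.16 in R 4.3.3 (filterByExpr with minimum counts of 10 per library and 15 in total, TMM factors 0.981 to 1.04, glmQLFit and glmQLFTest without covariates), with Benjamini-Hochberg adjustment over 15054 genes and a threshold of 0.05. The biological coefficient of variation was 0.099. Standard errors were the log2 fold change divided by the root of F. The procedure was tested on simulated data, in which 153 of 200 genes with a log2 change of 1 were recovered among 14891 tested and 10 unchanged genes were called. The estimates of the superfamily genes tested were smaller (-0.44 to 0.26), so this simulation does not show how often changes of their size would be recovered. Alternatives used RLE and upper-quartile normalization, DESeq2 1.42.0, other count filters, a replicate block, libraries left out in turn and unsummed entries. Values per library were named for superfamily genes with a mean of at least 1 TPM or an unadjusted p under 0.05, and the others by their level, range or, where few, counts. The genes and lists were chosen with earlier results of these data known. Promoters came from RefSeq GRCh38.p14.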

Additional observations from a re-analysis of the deposited data

How the results depend on the processing

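The number of all genes past the threshold was 12 and rose to 151 with DESeq2 and to 354 without the filter on low counts, and it ran from 2 to 35 when a library was left out, the lowest without IR+PR-LV replicate 3 and the highest without IR+NC-LV replicate 2. The number of superfamily genes past the threshold was 0 except without the filter, where it was 1 (TNFRSF9, log2 fold change -0.30). Their median log2 fold change moved from 0.00094 to -0.0059 with upper-quartile normalization, -0.00015 with unsummed entries, 0.025 with DESeq2 and 0.020 without the filter, and from -0.025 to 0.011 as libraries were left out. TNFRSF21 changed sign with DESeq2 (0.0025). On leaving out a library the sign changed in 12 of the 22 superfamily genes tested, whose estimates ranged from -0.014 to 0.21 for TNFRSF10A-DT, -0.47 to 0.39 for TNFRSF14, -0.14 to 0.33 for TNFRSF18, -0.052 to 0.073 for TNFRSF19, -0.059 to 0.065 for TNFRSF1B, -0.037 to 0.011 for TNFRSF21, -0.26 to 0.0022 for TNFRSF25, -0.22 to 0.071 for TNFSF13, -0.39 to 0.10 for TNFSF13B, -0.19 to 0.029 for TNFSF15, -0.042 to 0.27 for TNFSF4 and -0.022 to 0.082 for TNFSF9. Of 285 estimates of these 22 genes under the alternatives, 259 kept direction and side of the threshold, 25 changed direction and 1 gained a call (TNFRSF9). For 7 other genes named (CD27, CYLD, FAS, MAP3K5, NGFR, TNFAIP3 and TRAF1) no direction changed, TRAF1 and TNFAIP3 lost 3 calls between them and CYLD gained 2. With the replicate block, 18 genes passed (6 higher and 12 lower), 0 superfamily genes passed and 3 of 22 had an unadjusted p under 0.05, as did 11.0% of all genes in that fit. Deviations from the group mean had correlations of -0.017, 0.058 and 0.059 between same-numbered libraries. Between differently numbered libraries they ran from -0.10 to 0.064. With 3 libraries per group, these values cannot decide whether the numbers pair the samples. The 5 highest genes by TPM were also the 5 highest by CPM, but TNFRSF12A ranked 3 there (115 CPM), below TNFRSF10B (145 CPM) and TNFRSF1A (137 CPM). The order by FPKM was no separate check, since FPKM and TPM come from the same counts and lengths. The number of genes called expressed was 22 at a mean of 0.5 TPM and 17 at 2 TPM. Depth limits the 13 genes that were not tested, which had 0 to 58 counts in the 6 libraries.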

Other observations

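TNFRSF14 was not alone in its pattern over the libraries. Of the 15054 genes tested, 4 (0.0266%) had both IR+NC-LV replicate 2 and IR+PR-LV replicate 3 below 0.5 times every other library, and these were TNFRSF14, ZYX, ADAMTS13 and PRRT4. ZYX, a focal adhesion protein, had 24.4, 10.4 and 26.7 normalized CPM in IR+NC-LV and 46.4, 24.5 and 12.0 normalized CPM in IR+PR-LV. The secreted protease ADAMTS13 had 0.60, 0.19 and 0.65 normalized CPM in IR+NC-LV and 0.77, 0.50 and 0.11 normalized CPM in IR+PR-LV. PRRT4 had 0.66, 0.28 and 1.01 normalized CPM in IR+NC-LV and 0.83, 0.64 and 0.16 normalized CPM in IR+PR-LV. ADAMTS13 and PRRT4 were low throughout, with at most 0.77 and 1.01 normalized CPM in any library. No other pair of libraries was searched by this rule, so the count of 4 genes has nothing to be read against. The pattern crosses the groups, it was found after the values of TNFRSF14 were seen, and its cause was not tested.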
